A study of Mus musculus with 10 samples.

Results

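Neurogliaform-type interneurons carrying Lamp5 or Ndnf were examined in single-cell RNA sequencing of the mouse medial prefrontal cortex. They made up 176 of 48816 kept cell barcodes and 176 of 1857 barcodes with GABAergic markers. Members were chosen on measured values, by counts of unique molecular identifiers (UMIs, 1 per captured RNA molecule) in each barcode. Barcodes entered with 500 or more genes seen and no more than 15% of UMIs from mitochondrial genes. It was a member with at least 2 UMIs of Gad1, Gad2 and Slc32a1 together, at least 2 of Lamp5 and Ndnf together, at most 1 of the excitatory genes Slc17a7 and Neurod6 together, and at most 1 of Gja1, Cldn5 and Mog together. Sst had to stay under 10 UMIs, Pvalb under 2 and Vip under 3. The values of these 13 genes are given as a description and support no call below; Ndnf also serves to split the members.

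The mice were male C57BL/6N, an inbred wild-type strain, over 2 months old. They had been ranked by the tube test, in which the mouse that backs out of a narrow tube loses, and tissue was taken 1 day after the final test. Rank 1 (dominant) and rank 4 (subordinate) mice gave 5 libraries each, every one pooled from 2 or 3 mice and digested with papain at 37 °C for 60 min. The library was therefore the replicate, and both ranks went through the same tests and digestion. The design compared the cortex of dominant with that of subordinate males, and p-values measure the spread between these pooled libraries.

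Neurogliaform cells are small, dense interneurons, many of them in layer 1, that release GABA as a slow cloud over nearby dendrites and act through GABA-A and GABA-B receptors at a distance. They arise mostly from the caudal ganglionic eminence and the preoptic area. Lamp5 encodes a lysosome-associated membrane protein, Ndnf a secreted neuron-derived factor that marks layer 1 interneurons, and Reln the extracellular protein reelin. In the GENCODE M21 annotation of GRCm38, Lamp5 lies at chr2:136052239-136069917, Ndnf at chr6:65671590-65712326, Reln at chr5:21884454-22344702 and Npy, the gene of neuropeptide Y, at chr6:49822710-49829507.

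The bases before the start of Lamp5, which chose members, and of Reln and Npy, which differed in opposite directions among the members, are printed 5′ to 3′ from RefSeq promoters on GRCm38.p6. Of the genes searched for, Lamp5, Reln and Npy matched and Ndnf did not. The Lamp5 stretch is the plus strand of chr2:136052089-136052238, the Reln stretch the minus strand of chr5:22344706-22344955, and the Npy stretch the plus strand of chr6:49822460-49822709. Capitals mark GGGCGG, the GC box, on either strand.
Lamp5: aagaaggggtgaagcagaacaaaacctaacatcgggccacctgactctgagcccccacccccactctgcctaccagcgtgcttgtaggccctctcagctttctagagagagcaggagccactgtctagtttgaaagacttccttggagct
Reln: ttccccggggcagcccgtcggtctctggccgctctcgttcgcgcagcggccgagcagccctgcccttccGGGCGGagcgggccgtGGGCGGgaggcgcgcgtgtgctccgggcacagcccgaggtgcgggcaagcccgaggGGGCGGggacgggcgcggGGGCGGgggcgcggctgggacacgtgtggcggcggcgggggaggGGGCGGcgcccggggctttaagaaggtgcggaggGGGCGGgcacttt
Npy: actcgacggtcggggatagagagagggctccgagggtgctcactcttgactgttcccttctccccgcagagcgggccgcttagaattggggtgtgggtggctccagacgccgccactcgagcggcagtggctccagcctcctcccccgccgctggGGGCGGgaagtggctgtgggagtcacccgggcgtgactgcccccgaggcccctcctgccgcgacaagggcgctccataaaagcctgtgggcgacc
Reln held 6 GC boxes in 250 bases and Npy 1 in 250, while 32.7% of the 32851 listed promoters held at least 1 in a window of that length. Lamp5 held none in its 150 bases, and 16.7% of promoters held at least 1 in a window of that length. Neither TAATTA, a homeodomain core found in 4.84% of 250-base windows, nor AGGTCA, a nuclear receptor half-site found in 14.0%, was in any of the 3 stretches on either strand. The GC content was 54.7% for Lamp5, 80.0% for Reln and 69.2% for Npy. The motifs describe letters in these windows and were not tied to any measurement.

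Libraries held 4442750 to 29278466 UMIs in 1838 to 15826 deposited barcodes. Members were deeper than the average barcode, with a median of 3788.5 UMIs against 1672 over all kept barcodes, and their library medians lay between 2169 and 7859 UMIs. Median mitochondrial shares of members ran from 2.87% to 12.1%. Sequences of 577 kept barcodes occurred in more than 1 library, 3 members among them, and no sequence was a member in more than 1. No doublet caller was run. Values per library are counts per 1000000 (CPM) of the summed UMIs of the members, or of another group of barcodes where that is named.

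Of the 5 marker genes of the label, Lamp5, Ndnf, Gad1 and Gad2 were present in every library and Reln in all but rank 1 replicate 3. Gad1, which like Gad2 was in the rule, lay between 1840 and 4777 CPM and Gad2 between 1730 and 4485, these 2 genes encoding the enzymes that make GABA. Lamp5 was even, from 552 to 979 CPM. Ndnf ranged from 35.5 to 861 CPM and Reln from 0 to 990 CPM. Reln, which was not in the rule, was seen in 58 of 176 members. Of marker lists for other classes, the median summed level over the 10 libraries was 422 CPM for excitatory neurons, 253 for astrocytes, 218 for microglia, 208 for erythroid cells, 126 for oligodendrocytes and 80.5 for endothelial cells. The pericyte, oligodendrocyte precursor and other interneuron lists had medians of 20.7, 12.9 and 40.3 CPM, with Kcnj8 and Chodl at 0, and the Cajal-Retzius list 0. The rule capped Slc17a7 and Neurod6 of the excitatory list, Gja1 of the astrocyte, Mog of the oligodendrocyte and Cldn5 of the endothelial list. It also capped Sst, Pvalb and Vip of the other interneuron list. Low sums of these lists were thus partly fixed in advance. The GABAergic list, part of which chose the members, stood at 9253 CPM. Trp73, Lhx1, Lhx5 and Ebf3, markers of Cajal-Retzius cells, another reelin-producing cell, had no UMI in 176 members, which allows a share of up to 1.70% of members with a UMI.

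Depth and background bear on the marker calls. At 1500 UMIs per barcode, which left out 7 members, Reln was seen in 33 of 169 members, or 19.5% (exact 95% binomial interval 13.8 to 26.3, counting error only). In 2858 endothelial-type barcodes (at least 3 Cldn5 UMIs and no Gad1, Gad2, Slc32a1, Gja1 or Mog; median 1373 UMIs), 0.629% of the 1272 deep enough held Reln at that depth. Npy was seen in 150 of 169 thinned members and in 9.59% of these endothelial-type barcodes. Ndnf itself was in 16.0% of them at 1500 UMIs against 34.9% of thinned members, so Ndnf UMIs were not confined to GABAergic barcodes. Expression and background RNA were not told apart. Thinning is a random draw and its counts move by a few barcodes from draw to draw.

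Members at the limit resembled the rest in part. The 37 members with exactly 2 Lamp5 and Ndnf UMIs had Npy in 31 barcodes, Kit in 29, Id2 in 22 and Reln in 12. Just outside were 77 GABAergic barcodes with 1 such UMI (median 2319 UMIs), under the same limits for Sst, Pvalb and Vip. They had Npy in 49, Kit in 37, Id2 in 34 and Reln in 14. In the 850 with none under these limits (median 2253 UMIs), Npy was in 264, Kit in 88, Id2 in 199 and Reln in 137. For Npy, Kit and Id2 the barcodes just outside thus stood between the members and these 850. Barcodes above the Sst, Pvalb or Vip limits were in neither set.

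The 4 genes Lamp5, Ndnf, Reln and Npy varied among libraries in different ways. Reln was 256, 558, 0, 184 and 162 CPM in rank 1 replicates 1 to 5, and 688, 990, 64.8, 177 and 140 CPM in rank 4. Ndnf was 391, 335, 35.5, 552 and 350 CPM in rank 1, and 556, 689, 64.8, 861 and 530 CPM in rank 4. Replicate 3 of both ranks was lowest in both genes, with 1 of 7 and 1 of 5 members carrying an Ndnf UMI. Npy, a peptide that dampens transmitter release, was 4568, 16040, 20331, 20484 and 19027 CPM in rank 1 and 8880, 3701, 8936, 17281 and 21069 CPM in rank 4. Its low libraries were the first replicate of both ranks and replicates 2 and 3 of rank 4, all made with software version 3.1.0. In the version 4.0.0 libraries, replicates 4 and 5, Npy lay at 17281 to 21069 CPM and Reln at 140 to 184 CPM. Rank 1 replicates 2 and 3, also of version 3.1.0, had Npy at 16040 and 20331 CPM. The cause was not tested.

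**Figure D1:**
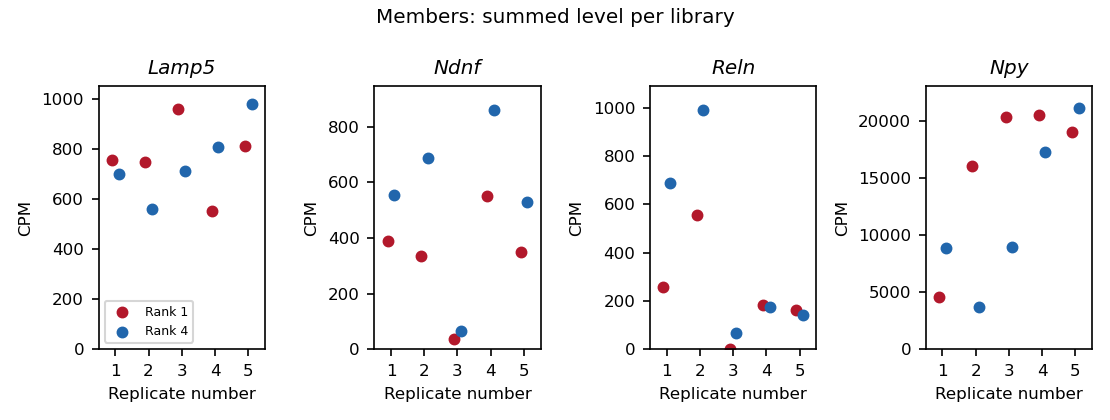
Summed level (CPM) of Lamp5, Ndnf, Reln and Npy in the members of each library against the replicate number, red for rank 1 and blue for rank 4. Lamp5 stays between 552 and 979 CPM while Reln runs from 0 to 990 CPM and replicate 3 of both ranks sits lowest in Ndnf and Reln.

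Members made up 10.9% ± 4.39 of GABAergic barcodes in rank 1 and 10.8% ± 4.70 in rank 4 (mean ± SD, n = 5 libraries each). The shares were 6.28%, 18.1%, 10.3%, 11.0% and 8.93% in rank 1 replicates 1 to 5, and 10.2%, 18.8%, 6.58%, 10.5% and 8.17% in rank 4. The second replicate was highest in both ranks, and the groups overlapped over nearly their whole range. The difference of 0.08 percentage points was far smaller than the spread between libraries (two-sided exact permutation test over 252 divisions of the libraries, p = 0.968, smallest possible p 0.00794). Within software version 3.1.0 it was -0.293 points and within 4.0.0 0.631 points. With 48 to 563 GABAergic barcodes behind a share, its exact 95% interval was wide, from 8.95% to 32.6% in the second library of rank 4.

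Of all kept barcodes, members were 0.475% ± 0.213 in rank 1 and 0.366% ± 0.146 in rank 4 (n = 5 each). Library values were 0.285%, 0.763%, 0.478%, 0.593% and 0.255% in rank 1, and 0.427%, 0.517%, 0.133%, 0.419% and 0.335% in rank 4. Rank 1 was higher in 3 of 5 pairs of libraries with the same number. The difference of 0.108 percentage points did not pass (exact permutation p = 0.381, adjusted over both shares 0.762), and neither result shows that the shares are alike. It was 0.149 points within version 3.1.0 and 0.0473 within 4.0.0. Among members, an Ndnf UMI was present in 47.5% ± 19.0 in rank 1 and 45.9% ± 15.8 in rank 4 (n = 5 each), given as a description since Ndnf chose the members. Their median depth was 5023 ± 1683 UMIs in rank 1 and 3785 ± 1659 in rank 4 (n = 5 each, exact permutation p = 0.294).

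**Figure D2:**
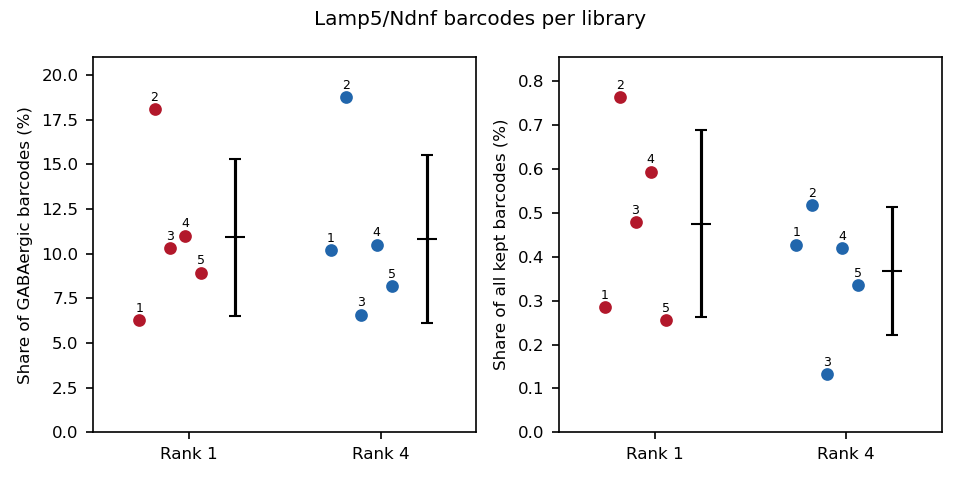
Share of members among GABAergic barcodes (left, %) and among all kept barcodes (right, %), 1 numbered point per library, red for rank 1 and blue for rank 4, with mean and SD in black. Both ranks span similar ranges, with the second replicate highest in each on the left.

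Members were then set against 3 other interneuron gates built from the same 13 genes: 395 Sst barcodes, 77 Pvalb barcodes and 269 Vip barcodes. UMIs were summed per library and gate where a gate had at least 10 barcodes, giving 28 sums, 7 of them of members, 9 of Sst, 2 of Pvalb and 10 of Vip. A gene was called when it passed an adjusted p of 0.05 against all 3 gates in 1 direction (edgeR quasi-likelihood test with the library as block, Benjamini-Hochberg over all genes of the fit, those of the rule included). Of 4341 genes outside the rule, 111 (2.56%) were higher in members and 60 (1.38%) lower. The Pvalb contrast rested on 2 libraries, and when it was not required 209 genes were higher and 179 lower. Of the neurogliaform and Lamp5 subtype list, 21 of 31 genes could be tested and 9 were higher in all 3 contrasts, with none lower. The list was drawn from known markers of these cells and with earlier results of these data known, so it is no independent support.

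Of the 10 tested neuropeptide and peptide receptor genes, Npy and Pnoc were higher than in all 3 gates and none was lower, beside 2.56% and 1.38% of all genes. Npy lay at 4568 to 21069 CPM in members (median 17281, 7 libraries), against medians of 5716 CPM in Sst, 241 in Pvalb and 143 in Vip barcodes. Members and Sst barcodes overlapped in range, and Npy was higher than in the Sst gate by 1.73 ± 0.25 on the log2 scale (SE, adjusted p = 3.34e-08, edgeR). Pnoc, the precursor of the opioid-like peptide nociceptin, was at a median of 825 CPM against 45.2, 18.4 and 219 CPM in the 3 gates, in that order. Kit, a receptor tyrosine kinase, lay at 741 to 2083 CPM in members and at most at 564 CPM in any Vip library. Its difference from Vip was 2.69 ± 0.20 (SE, log2, edgeR adjusted p = 1.79e-18). For Kit the members' libraries did not overlap those of any other gate.

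The 10 genes with the largest smallest difference were Mia, Sv2c, Cdh24, Hapln1, Crispld1, Cplx3, Disp3, Cacna2d1, Igsf11 and Thrsp, each higher in 16 of 16 comparisons within a library. Sv2c, a synaptic vesicle glycoprotein, stood at a median of 497 CPM in members (191 to 552) and at no more than 22.3 CPM in any library of the other gates. The secreted protein gene Mia had 138 UMIs in members, 2 in Sst, 3 in Pvalb and none in Vip barcodes. Hapln1, a link protein that ties hyaluronan to proteoglycans, was at 202 to 503 CPM against at most 47.4 CPM elsewhere. Cplx3, a complexin that acts on vesicle fusion, was at 172 to 494 CPM in members and reached 75.1 CPM in a Vip library. The calcium channel subunit Cacna2d1 was at 558 to 1236 CPM against at most 176 CPM elsewhere, and differed from Vip by 2.89 ± 0.20 (SE, log2, edgeR adjusted p = 1.54e-20). Exons of Mia and Crispld1 overlap those of other annotated genes, and whether counting used strand is not known, so the UMIs of both partners cannot be told apart. DESeq2 did not call Mia in all 3 contrasts, Disp3, Cdh24 and Camk1g lost the call without rank 4 replicate 4, and Crispld1, Igsf11 and Cdh24 without rank 4 replicate 5. With no UMI of other classes the genes Runx1t1 (adjusted p = 0.0606), Igfbp4 and Dock4, which were lower in members, lost it, Dock4 also after thinning.

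Genes of the 2 developmental classes of interneurons differed by contrast. No gene of the caudal (12 tested) or medial (8 tested) ganglionic eminence list was called in all 3 contrasts. Over all genes 2.56% were called higher and 1.38% lower. Against Sst, 551 genes (12.7%) were higher and 527 (12.1%) lower over all genes, and the caudal list had 6 higher and 4 lower. Against Vip, 331 genes (7.62%) were higher and 347 (7.99%) lower, and the caudal list had none higher and 9 lower. Against Pvalb, 284 (6.54%) were higher and 334 (7.69%) lower, with 6 of the caudal list higher. Adarb2, an RNA-editing family member of caudal cells, lay at a median of 375 CPM in members, 0 in Sst, 4.44 in Pvalb and 1216 in Vip barcodes. Members and Vip did not overlap, and the difference was -1.91 ± 0.14 (SE, log2, edgeR adjusted p = 2.9e-18). Prox1, a homeobox factor of caudal cells, was lower than in Vip by a log2 difference of -1.07 ± 0.21 (edgeR adjusted p = 3.33e-05).

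Npas1, a transcription factor usually listed for caudal interneurons and for neurogliaform cells, was rare in members. It had 8 UMIs in 6 of 176 members and lay between 0 and 40.5 CPM in their libraries. Of these, 5 barcodes with 7 of the UMIs were among the 37 members with exactly 2 Lamp5 and Ndnf UMIs, a share of 13.5%. The share was 12.4% in the 850 GABAergic barcodes with no Lamp5 or Ndnf UMI under the Sst, Pvalb and Vip limits. It was 43.8% in the Sst and 32.0% in the Vip barcodes. Sst libraries held 120 to 271 CPM and Vip libraries 106 to 487 CPM, with no overlap, and the log2 differences were -3.81 ± 0.37 and -3.96 ± 0.39 (SE, edgeR adjusted p = 6.32e-14 and 2.14e-13). Npas1 had no UMI in Pvalb barcodes. At 1500 UMIs it was in 1 of 169 members in one random draw, and in 3 of 80 with and 1 of 89 without Ndnf in another, against 22.3% of Sst, 27.8% of Vip and 0.708% of endothelial-type barcodes.

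Of the 8 medial genes tested, 6 were lower and 2 higher than in Sst, 5 lower and 1 higher than in Pvalb, and 2 higher than in Vip. Over all genes 12.7% were higher and 12.1% lower than in Sst, 6.54% and 7.69% than in Pvalb, and 7.62% and 7.99% than in Vip. Lhx6, the factor that directs medial interneurons, was in 6 of 176 members, 3 of them with exactly 2 Lamp5 and Ndnf UMIs, and at 0 to 37.5 CPM, against 48.8 to 295 CPM in Sst libraries. Nkx2-1, its upstream factor in the embryo, had no UMI in members, nor in the Sst, Pvalb or Vip barcodes. Satb1, a chromatin organiser of Sst and Pvalb cells, was at 0 to 58.9 CPM against 424 to 985 CPM in Sst libraries. Nxph1, a neurexin ligand, went the other way against Vip, at 162 to 412 CPM in members and at most 47.4 CPM in Vip libraries (log2 difference 4.07 ± 0.32, SE, edgeR adjusted p = 3.32e-17).

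Reln did not set members apart from Sst barcodes. It was at 140 to 688 CPM in the 7 member libraries tested and 406 to 648 CPM in Sst libraries, which overlapped, and was lower than in Sst by a log2 difference of -0.89 ± 0.21 (SE, edgeR adjusted p = 0.000429). Compared with Vip it was higher by 2.67 ± 0.34. Its exons overlap those of Gm10475. Of the reelin, matrix and gap junction list, 5 of 9 genes were tested and Hapln1 was called, beside 2.56% of all genes called higher. The gap junction gene Gjd2 was at 0 to 22.1 CPM in members and not tested.

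**Figure D3:**
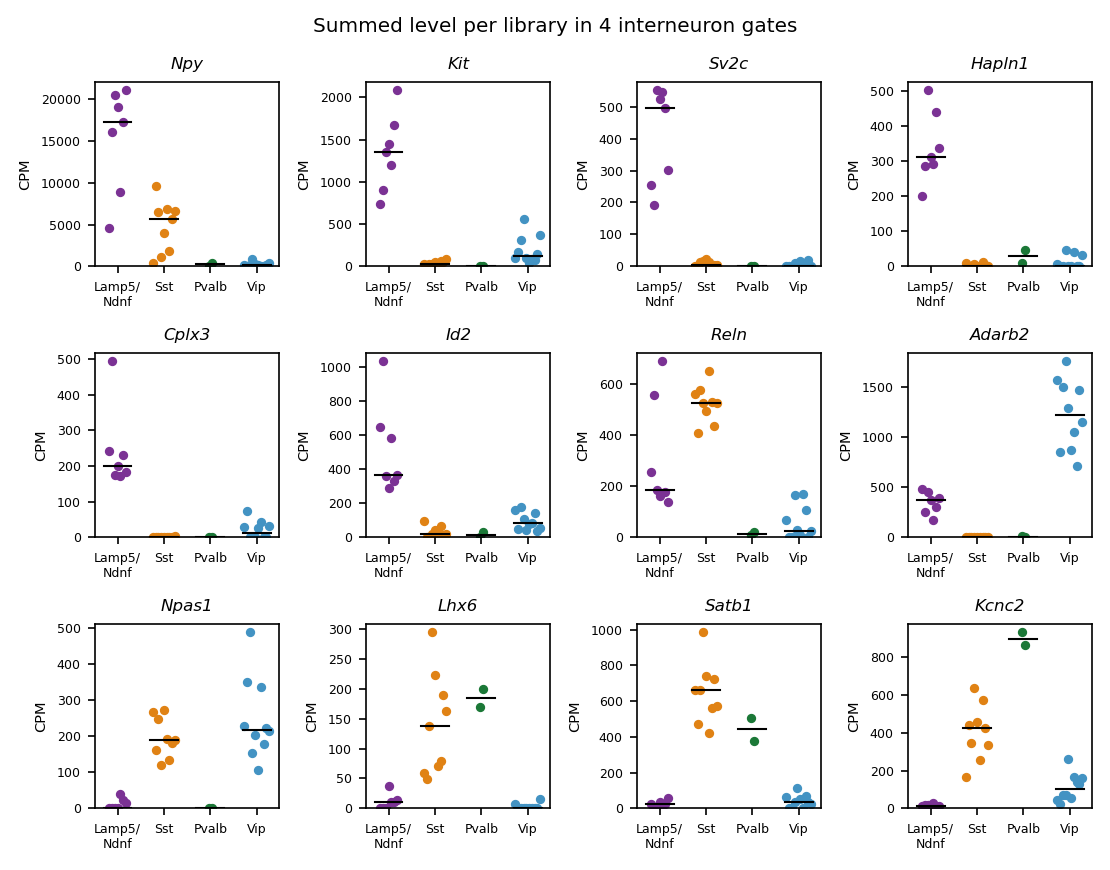
Summed level (CPM) of 12 genes per library in members (purple), Sst (orange), Pvalb (green) and Vip (blue) barcodes, with a bar at the median; libraries with at least 10 barcodes are drawn. Kit, Sv2c, Hapln1 and Cplx3 are high in members alone, Reln overlaps Sst, and Npas1 is high in Sst and Vip but at 0 to 40.5 CPM in members.

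Called genes of GABA transmission and modulation stand beside 2.56% of all genes called higher and 1.38% lower. Of 8 tested genes for synthesis, transport and release, Cplx3 was called higher. Of 13 tested GABA receptor genes, Gabra5 and Gabbr2 were called higher. Gabra5, the subunit of extrasynaptic GABA-A receptors, was at 80.8 to 126 CPM in members and at most 32.5 CPM elsewhere. Gabbr2, a subunit of the GABA-B receptor, was at 398 to 999 CPM and overlapped with Sst, Pvalb and Vip libraries. Gabrd, the delta subunit of tonic GABA-A receptors, was at 87.4 to 155 CPM against at most 16.3 CPM in Sst and 28.9 CPM in Vip libraries, but did not differ from Pvalb (log2 difference 0.57 ± 0.50, edgeR adjusted p = 0.523). Among 10 tested modulator receptors, the alpha-1A adrenoceptor gene Adra1a was called higher, at 30.3 to 162 CPM.

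Of the genes that were lower in members than in all 3 gates, the 10 with the largest smallest difference were Runx1t1, Camk1g, Igfbp4, Kcnc2, Rbp4, Pcdh7, Ntm, Pcdh17, Galntl6 and Dock4. Kcnc2, the Kv3.2 potassium channel of fast-spiking cells, was at 11.0 to 30.3 CPM in members, 167 to 640 CPM in Sst, 863 and 933 CPM in the 2 Pvalb libraries and 25.0 to 260 CPM in Vip libraries, the last of which it overlapped. It was the 1 gene called of 14 tested channel genes, beside 1.38% of all genes called lower. Its log2 difference from Vip was -2.60 ± 0.41 (edgeR adjusted p = 4.3e-07). Rbp4, a retinol carrier, was at 0 to 26.9 CPM against 295 to 1361 CPM in Sst libraries. The transcriptional corepressor gene Runx1t1 had 2 UMIs in members, 282 in Sst, 26 in Pvalb and 31 in Vip barcodes. The protocadherin gene Pcdh7 was at 9.68 to 80.9 CPM against 106 to 361 CPM in Vip libraries, and Ntm, neurotrimin, at 38.7 to 121 CPM against 225 to 695 CPM in Vip libraries. Members did not overlap with Vip for Pcdh7 or Ntm. No gene of the early response, glucocorticoid-responsive or heat shock lists was called in all 3 contrasts, of 9, 8 and 8 tested. Over all genes 2.56% were called higher and 1.38% lower, so lists this short would hold few. Egr1, an early response gene, was lower than in Sst and Vip (log2 differences -1.18 and -1.72, edgeR adjusted p = 0.00198 and 1.66e-05) but not than in Pvalb.

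Within the members, Reln went with Ndnf. Lamp5 and Ndnf were both present in 68 members, Lamp5 without Ndnf in 89 and Ndnf without Lamp5 in 19. The 87 members with Ndnf (median 3440 UMIs) had Reln in 50 barcodes, and the 89 without (median 3900 UMIs) had it in 8. At 1500 UMIs these shares were 42.5% of 80 and 5.62% of 89 barcodes. Members without Ndnf were thus the deeper ones. A barcode with no Ndnf UMI may still express the gene, and by the rule it holds at least 2 Lamp5 UMIs.

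Members with and without Ndnf were compared in 7 libraries with at least 5 barcodes of each (edgeR, library as block, adjusted over all genes of the fit). Of 654 genes besides Lamp5 and Ndnf, 5 (0.765%) were higher and 5 (0.765%) lower in members with Ndnf. Reln was 532, 744, 313, 282, 1020, 313 and 345 CPM with Ndnf in rank 1 replicates 1, 2, 4 and 5 and rank 4 replicates 1, 4 and 5. Without Ndnf it was 0, 361, 0, 48.8, 158, 23.4 and 23.1 CPM in the same libraries, lower in 7 of 7. The log2 difference was 2.72 ± 0.29 (SE, edgeR adjusted p = 1.29e-13). Among the others that rose were Parm1 (1.13 ± 0.22), the protease inhibitor gene Cst3 (0.58 ± 0.15) and Kit (0.45 ± 0.13). Kit was higher in 7 of 7 libraries, with an edgeR adjusted p of 0.0445. Cst3 was higher in 4 of 7, at 4721 against 1786 CPM in rank 4 replicate 1 and 3326 against 947 CPM in rank 4 replicate 5. Its call was lost without either library (adjusted p = 0.458 and 0.818). That of Kit was lost without any 1 of 6 libraries, with an adjusted p of 0.517 without rank 4 replicate 5.

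Of the 3 tested neuropeptide genes, Npy and Cck were lower, beside 0.765% of all genes called lower. Pnoc did not pass (log2 difference 0.15, edgeR adjusted p = 0.909). Npy was lower with Ndnf by a log2 difference of -0.53 ± 0.11 (SE, edgeR adjusted p = 0.00104), in 6 of 7 libraries. Rank 1 replicate 4 was the exception, at 23412 CPM with and 16318 CPM without Ndnf. Cck, the cholecystokinin gene, was lower by -0.58 ± 0.13 (edgeR adjusted p = 0.0024), also in 6 of 7. The others were Ppp1r2, an inhibitor of protein phosphatase 1 (-0.91 ± 0.23), Ogfrl1 (-0.85 ± 0.18) and the neuronal splicing factor Rbfox3 (-0.68 ± 0.19), each lower in 7 of 7. The calls of Rbfox3 without rank 4 replicate 5 or rank 1 replicate 2, of Ppp1r2 without rank 1 replicate 4 or 5, and of Cck without rank 1 replicate 4 were lost (edgeR adjusted p between 0.059 and 0.505). Reln, Parm1, Ogfrl1 and Npy passed without each library in turn. Of the general markers of these cells, Id2 (-0.28 ± 0.18), Hapln1 (-0.20 ± 0.22) and Sv2c (0.20 ± 0.20) did not pass (edgeR adjusted p between 0.779 and 0.935).

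These calls depended on comparing barcodes within a library. Without the library block no gene passed (0, with 13 of 654 at an unadjusted p under 0.05 in edgeR), and the Reln difference was 2.78 with an adjusted p of 0.0574. DESeq2 kept 2 of the 10 calls, Reln among them.

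**Figure D4:**
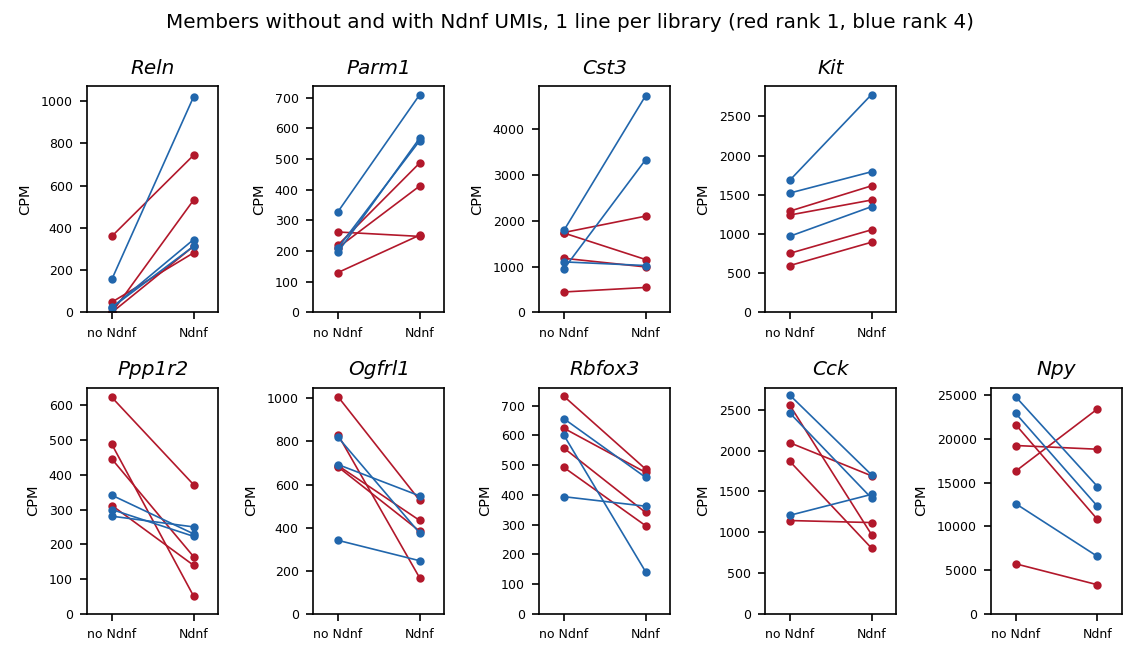
Summed level (CPM) of 9 genes called between members without (left) and with (right) Ndnf UMIs, 1 line per library, red for rank 1 and blue for rank 4. Reln and Kit rise in 7 of 7 libraries, and Ppp1r2, Ogfrl1 and Rbfox3 fall in 7 of 7.

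Between ranks, no gene passed in the members. The fit used the 7 libraries with at least 10 members (rank 1 replicates 1, 2, 4 and 5, rank 4 replicates 1, 4 and 5) and the software version as covariate. Of 2145 genes, 0 (0%) passed an adjusted p of 0.05 in edgeR and 64 had an unadjusted p under 0.05, against 0 and 23 in DESeq2. Reln (log2 difference rank 1 minus rank 4 -0.30 ± 0.36, SE), Npy (0.12 ± 0.55) and Kit (-0.44 ± 0.30) lay within their errors or close to them. Same-numbered libraries deviated together, but so did differently numbered libraries of the same software version. Pairing by number and a shared version cannot be told apart here. With the replicate number as block, 5 genes (0.233%) passed: Nos1, Gpr162, AC149090.1 and AY036118 were higher in rank 1 and Mt3 lower. The second library of rank 1 has no partner in that fit and adds nothing to the rank difference; without it the unblocked fit called the same 5 genes.

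Nos1, the neuronal nitric oxide synthase gene and a mark of some neurogliaform cells, was 121, 31.9, 0, 242 and 262 CPM in rank 1 replicates 1 to 5 and 30.3, 43.0, 194, 88.3 and 88.3 CPM in rank 4. Rank 1 was higher in replicates 1, 4 and 5 and lower in 2 and 3, and the groups overlapped. Its log2 difference was 1.52 ± 0.45 without and 1.65 ± 0.40 with the block (SE, edgeR adjusted p = 1.00 and 0.0185), from 87 UMIs in all members. Exons of Nos1 overlap those of Gm26995. Gpr162, an orphan receptor gene, was 512, 127, 320, 203 and 200 CPM in rank 1 and 182, 86.1, 32.4, 66.2 and 58.9 CPM in rank 4. Each of the 5 same-numbered pairs had more in rank 1, though the groups overlapped between 127 and 182 CPM. The log2 difference was 1.31 ± 0.45 without and 1.65 ± 0.36 with the block (edgeR adjusted p = 1.00 and 0.00361).

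Mt3, a metallothionein that binds zinc and copper and is strong in astrocytes and some neurons, was 243, 350, 355, 58.1 and 212 CPM in rank 1 and 566, 560, 453, 309 and 898 CPM in rank 4. All 5 same-numbered pairs had less in rank 1, and the groups overlapped between 309 and 355 CPM. The log2 difference was -1.65 ± 0.43 without and -1.75 ± 0.31 with the block (SE, edgeR adjusted p = 1.00 and 2.88e-05), and over 18 alternatives it stayed between -2.12 and -1.10. AC149090.1 ran from 478 to 3314 CPM over the 4 rank 1 libraries in the fit and from 232 to 1102 CPM over the 3 of rank 4, and AY036118 from 0 to 675 and from 20.2 to 364 CPM. No role is given here for either, exons of AY036118 overlap those of CT010467.1 and Gm42418, and both were chosen for naming after their values were seen.

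Markers of other classes and ribosomal genes were summed in the same libraries, and the ranges of the ranks overlapped in every list. Within the same-numbered pairs of the fit (replicates 1, 4 and 5), the astrocyte, microglial, excitatory and pericyte sums and the ribosomal share were lower in rank 1 in 3 of 3 pairs, as Mt3 was. The oligodendrocyte, oligodendrocyte precursor, endothelial, other interneuron and Cajal-Retzius sums were lower in 2 of 3 and the erythroid sum in 1 of 3. The 6 astrocyte markers summed to 116 to 404 CPM in the rank 1 libraries of the fit and to 250 to 455 CPM in those of rank 4, all 6 being detected. The 7 microglial markers, all detected, summed to 77.4 to 539 CPM and to 210 to 1467 CPM, the highest in rank 4 replicate 1. Excitatory markers summed to 191 to 562 CPM in rank 1 and 552 to 662 CPM in rank 4, and oligodendrocyte markers to 31.9 to 391 and 154 to 870 CPM. Erythroid markers peaked in rank 1, at 155 to 1496 CPM against 169 to 1204 CPM, as did those of other interneurons, at 15.9 to 216 against 110 to 192 CPM. Endothelial markers lay at 9.68 to 112 and 44.2 to 121 CPM. Ribosomal protein genes took 2.21% to 3.34% of UMIs in rank 1 and 2.68% to 4.22% in rank 4. Of 80 tested, 74 had a negative difference and 18 had an unadjusted p under 0.05 in that direction, with a median log2 difference of -0.53. Over all 2145 genes tested, 1158 had a positive difference, 42 had an unadjusted p under 0.05 toward rank 4, and the median was 0.04. Their part in the differences of Mt3 and the other named genes was not tested; without rank 4 replicate 1 the Mt3 difference was -2.12.

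The genes with the smallest unadjusted p, none passing without the block, were for rank 1 higher Lman2l, Nos1, Pdcd6, Qpct, Gpr162, Smc3, Trim32, Pde10a, Ola1 and Srp9. Lman2l, a lectin of the secretory pathway, was 148, 175, 178, 116 and 62.5 CPM in rank 1 and 60.7, 43.0, 97.1, 11.0 and 14.7 CPM in rank 4 (log2 difference 1.99 ± 0.54, edgeR adjusted p = 1.00, and 0.16 with the block). Its exons overlap those of Fer1l5. In the libraries of the fit its 2 groups met at 62.5 and 60.7 CPM without overlapping. Toward rank 4 they were Mt3, Mt1, the microglial complement gene C1qa, the glutamate transporter gene Slc1a2, the adhesion gene Cadm2, and Rpl31, Rps27a, Fau, Rps21 and Rpl9. C1qa was 121, 31.9, 0, 38.7 and 50.0 CPM in rank 1 and 253, 43.0, 32.4, 33.1 and 155 CPM in rank 4.

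In the planned fit over the 7 libraries no list held a called gene between ranks. Nos1 of the subtype list passed with the replicate block and without rank 1 replicate 2, and Tac2 of the neuropeptide list passed without rank 4 replicate 1 (edgeR adjusted p = 0.0242). Of 15 tested subtype genes, 9 had a positive difference, with a median log2 difference of 0.12. The GABA receptor list had 9 tested genes with a median of 0.07, and the neuropeptide list 3 with 0.01. Cnr1, the cannabinoid receptor gene, had an unadjusted p of 0.0153 toward rank 4 (log2 difference -0.93 ± 0.35, edgeR adjusted p = 1.00). The 2 early response genes deep enough to test had a median of -0.33, the 2 glucocorticoid-responsive genes -0.38 and the 6 heat shock genes 0.19. The other genes of the early response list were too low in these sums to be tested.

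**Figure D5:**
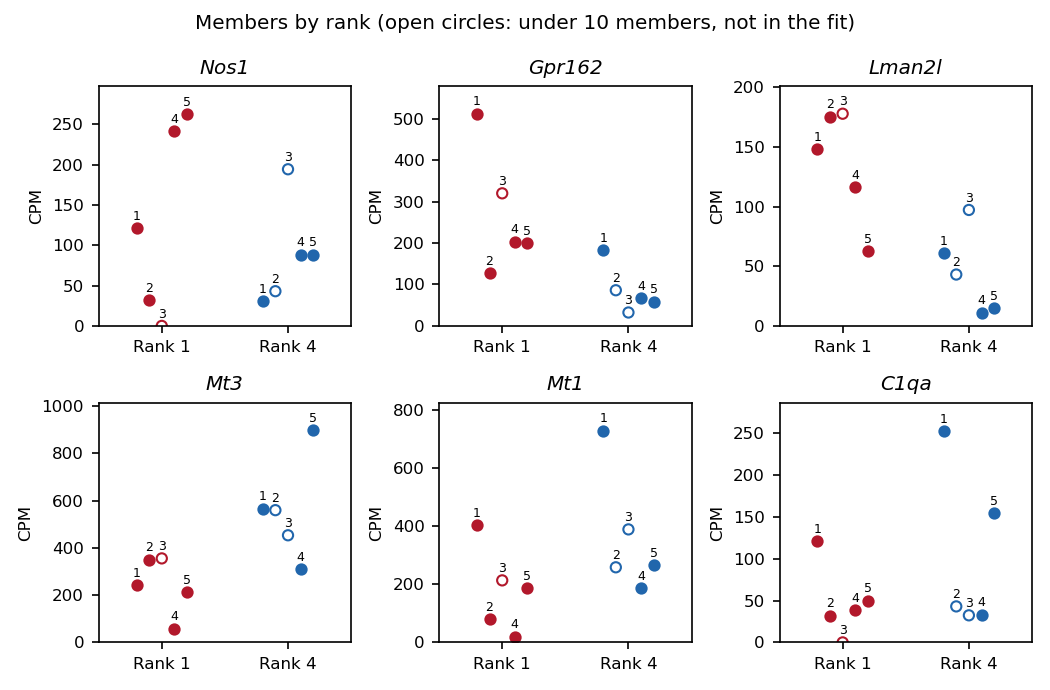
Summed level (CPM) of 6 genes in members of each library, numbered by replicate, red for rank 1 and blue for rank 4, with open circles for libraries with under 10 members that were not in the fit. Nos1 overlaps between ranks, Gpr162 reaches 512 CPM in rank 1 against 182 CPM in rank 4, and C1qa and Mt1 are highest in rank 4 replicate 1.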

How the data were processed

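The deposited files hold UMI counts per gene and barcode for 10 libraries of medial prefrontal cortex. Per the file headers, version 3.1.0 made the matrices of replicates 1 to 3 (31053 genes) and version 4.0.0 those of replicates 4 and 5 (32285 genes); the submitters' processing notes name Cell Ranger 4.0.0 and mm10. Whether counting used strand is not given in the sources used here. The 30406 shared gene identifiers, 99.4% to 99.9% of UMIs, were analysed. Members, gates and gene lists were chosen with earlier results of these data known.

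Counts were summed per library and gate and tested with edgeR 4.0.16 (R 4.3.3), TMM scaling, filterByExpr and Benjamini-Hochberg adjustment, after tests on simulated data. CPM values have no pseudocount. Shares were compared with exact permutation tests (scipy 1.17.1). DESeq2 1.42.0, other filters, thinning to 1500 UMIs and leaving out each library were alternatives. Deviations from the rank means were correlated over 2145 genes. Same-numbered libraries of the 2 ranks gave 0.505, 0.475 and 0.231 (replicates 1, 4 and 5). Differently numbered libraries gave 0.184 to 0.393 within a software version and 0.003 or below between versions. The deviations were not adjusted for the version, so they cannot tell pairing by number from a shared version. The replicate block was run as an alternative.

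Named genes were, for the gates, the 10 per direction with the largest smallest log2 difference and the same direction in every library; between members with and without Ndnf, the 10 with the largest difference per direction; for ranks, the 10 per direction with the smallest p; and list members. Nothing but the rule limited doublets. Some genes are not reported here.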

Additional observations from a re-analysis of the deposited data

How the results depend on the processing

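The rank difference in the share of GABAergic barcodes had no stable sign. It was -0.357 percentage points with at least 1000 genes, -1.74 with no UMI of other classes, -4.09 after thinning to 1500 UMIs (exact permutation p = 0.135, adjusted 0.27) and -0.293 within version 3.1.0, and ran from -1.71 to 2.05 when libraries were left out in turn. The share of kept barcodes ran from 0.0365 to 0.163 without single libraries and was -0.124 after thinning, the one alternative that turned it. With the replicate block (sign flips over 5 pairs) the 2 differences stayed at 0.0765 and 0.108, at an exact p of 0.938 and 0.312. With only 5 pairs this two-sided test cannot give a p under 0.05, so it could not have passed. Rank calls were 5 with the replicate block, 4 with Lamp5 and Ndnf of at least 4 (Mt3, Rps27a, Fau lower, Gpr162 higher) and 0 to 5 without single libraries: 5 without rank 1 replicate 2 and 1, Tac2, without rank 4 replicate 1. With no UMI of other classes no rank fit could be made, as too few libraries had 10 members.

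Genes called against the other gates numbered 171, and 388 against Sst and Vip alone (chosen after seeing the data), 113 in DESeq2, 81 with no library block, 52 with no UMI of other classes and 46 after thinning, where 1356 genes could be tested. Leaving out libraries gave 91 to 170, with 91 without rank 4 replicate 4 and 91 without rank 4 replicate 5, the 2 libraries with a Pvalb sum. The 10 calls between members with and without Ndnf became 3 with no UMI of other classes, 4 without the barcodes of most UMIs, 2 in DESeq2 and 0 without the library block; leaving out libraries gave 7 to 10. Adjusting again without the genes of the rule (chosen after seeing the data) gave 170 calls against the gates, 10 between members with and without Ndnf and 0 between ranks. None of the 20 genes named against the gates and the 10 between members with and without Ndnf changed direction in the alternatives run: of 364 values for these gate genes 353 kept their call, and of 146 for members with and without Ndnf 96 did. The rank difference of Reln, which did not pass, ran from -0.55 to 0.24. Except where fewer genes or libraries were tested, the cause of these shifts was not tested. The replicate block changed no other call. Libraries in the rank fit held 12 to 46 members, and genes too low in their sums were not tested.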
